A study of Solanum lycopersicum with 12 samples.

Results

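EXP1, MAN4, CEL1 and CEL2 are 4 tomato genes of cell wall loosening, an expansin, an endo-β-mannanase and 2 endo-β-1,4-glucanases. They were selected by identifier (Solyc06g051800, Solyc01g008710, Solyc08g081620 and Solyc09g010210), and 4 of 4 were found among the 17887 genes of the table. The choice was made with earlier results of these data known. Their counts beside the shares of all genes are therefore descriptive and test nothing. RNA sequencing gave their transcript levels in red ripe greenhouse fruits, in mesocarp tissue, the flesh of the fruit wall. QxG and GxQ are the reciprocal hybrids, crosses that exchange the roles of the same parents. Both parents, Querubín FCA (called Q) and Gema FCA (called G), are recombinant inbred lines. They derive from cultivated tomato crossed with the wild species Solanum pimpinellifolium, and each fixed its own mixture of cultivated and wild segments. Each genotype was grown as 8 plants and gave 3 libraries, one per fruit by the labels. The fruits are not linked to plants or harvest days in the labels, so harvest or ripeness on the day of picking cannot be told apart from genotype, and p-values measure the spread between these fruits.

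The primary wall of a tomato fruit cell consists of cellulose microfibrils tied together by xyloglucan and mannans and set in a pectin gel. Expansins loosen the contacts between cellulose and xyloglucan without cutting either polymer, endo-β-mannanases cut mannan chains, and endo-β-1,4-glucanases cut β-1,4-linked glucans. In ripening tomato, EXP1 is the expansin known for its accumulation with ethylene and for its part in softening. MAN4 is the mannanase known from ripening fruit, and CEL2 is an endoglucanase whose transcript is known to accumulate in ripening fruit and in abscission zones. CEL1 is an endoglucanase known mainly from abscission zones and flowers.

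The libraries held 15207931 to 25320267 counts. Between 31 and 338 genes were at 0 counts, except in the first QxG library, where 1436 genes were at 0 and only 77 had 1 to 4 counts. All 4 genes had counts in that library, the lowest being 18. The factors of TMM, the scaling between libraries used below, were 1.24 and 1.20 in the first and second Q libraries. They were 0.956 in the third Q library and 0.884 to 1.07 in those of the other genotypes. Fits without the third Q library thus rest, for Q, on the libraries with the highest factors. As a check of tissue and stage, PSY1, the first enzyme of carotenoid synthesis in ripe fruit, stood at 4411 to 9515 CPM in all 12 libraries. CER6, a wax gene of the epidermis, stood at 0 to 12.8 CPM. Its means were 0.299 ± 0.273 CPM in QxG, 0.335 ± 0.256 in GxQ, 8.16 ± 4.63 in Q and 0.552 ± 0.456 in G (SD, n = 3 each). It was lower in QxG than in Q, lower in GxQ than in Q and higher in Q than in G (edgeR adjusted p = 0.0176, 0.0123 and 0.0313). The average of both hybrids was lower than the mid-parent (log2 fold change -2.74, edgeR adjusted p = 0.0288). This epidermal marker thus moved with Q in the comparisons below, and its part in them was not tested. In bulk tissue, fewer cells of a type and less RNA per cell cannot be told apart.

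All 4 genes had their lowest mean in GxQ, and the order of the other genotypes varied between genes. A lowest mean in GxQ was not particular to them, and its share over all genes was not counted. Among the other listed cell wall genes PG2A, PL, XTH5, CEL7 and CEL8 had it too. Among the listed ripening genes ACS2, PSY1 and NOR did, and the rest of both lists did not. Levels are given as CPM (read counts relative to library size, scaled between libraries by TMM), as mean ± SD over 3 fruits. EXP1 averaged 722 ± 109 CPM in QxG, 213 ± 35.7 in GxQ, 1045 ± 879 in Q and 577 ± 220 in G. CEL2 averaged 906 ± 317 CPM in QxG, 264 ± 200 in GxQ, 1824 ± 1903 in Q and 587 ± 316 in G. For both, the order of the means was Q, QxG, G and GxQ. The place of Q rests on the third Q fruit: over the first and second Q fruits the mean was 538 CPM for EXP1, below QxG and G, and 726 CPM for CEL2, between QxG and G. MAN4 averaged 17.8 ± 13.7 CPM in QxG, 1.15 ± 0.956 in GxQ, 64.0 ± 78.6 in Q and 19.5 ± 4.70 in G. CEL1 averaged 1.46 ± 1.25 CPM in QxG, 0.302 ± 0.223 in GxQ, 0.535 ± 0.326 in Q and 5.94 ± 1.68 in G, with G highest. Neighbours in these orders mostly overlapped in their fruits. For EXP1 and MAN4, GxQ stood clear of the next genotype, and for CEL1, G stood clear of the next. The SD of EXP1, MAN4 and CEL2 in Q was about as large as the mean.

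**Figure D1:**
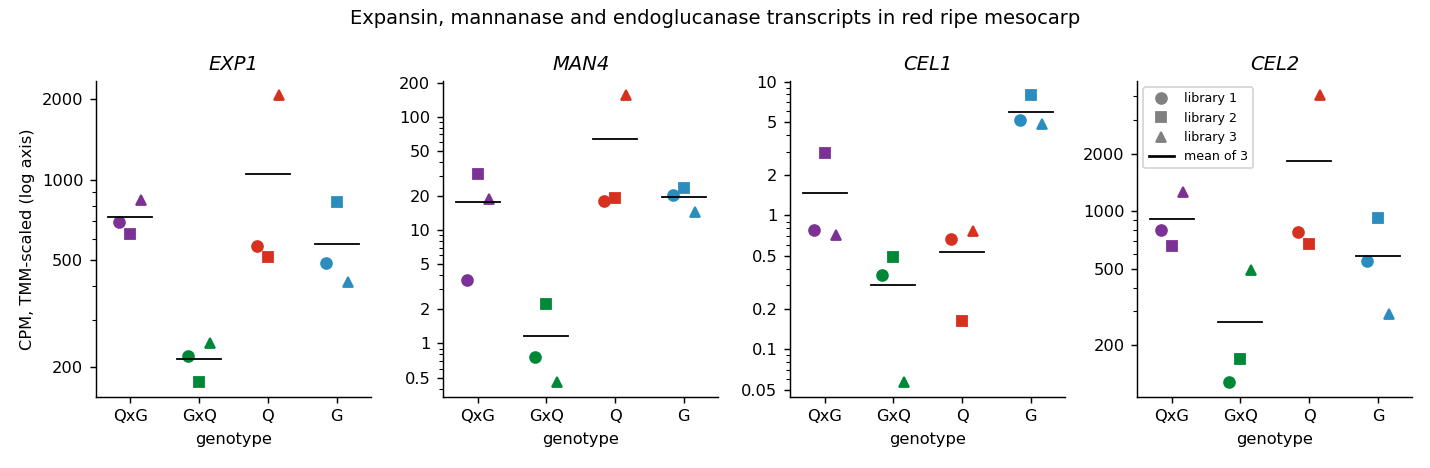
CPM of each gene (vertical log axis, TMM-scaled) in the 3 libraries of each genotype (horizontal axis). Marker shapes give the library number and black lines the mean of 3. GxQ has the lowest mean in all 4 panels, from 0.302 CPM for CEL1 to 264 CPM for CEL2, and the Q library marked by a triangle is the top point for EXP1, MAN4 and CEL2.

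The design asks whether the reciprocal hybrids differ, and they did for EXP1 and MAN4. EXP1 stood at 696, 629 and 842 CPM in the QxG fruits, against 219, 175 and 246 CPM in the GxQ fruits. The groups were well apart, and the spread within each was small beside the gap. By edgeR's quasi-likelihood test with Benjamini-Hochberg adjustment over all genes, EXP1 was 3.39-fold higher in QxG (log2 fold change 1.76, SE 0.474, adjusted p = 0.0346). MAN4 stood at 3.66, 31.1 and 18.7 CPM in QxG, against 0.767, 2.24 and 0.453 CPM in GxQ, where these rest on 15, 41 and 8 reads. The first QxG fruit was low, but still above every GxQ fruit. MAN4 was 15.3-fold higher in QxG (log2 fold change 3.94, SE 1.02, adjusted p = 0.0293).

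The endoglucanases had differences of the same sign that did not pass the threshold of 0.05. CEL1 had 18, 48 and 12 reads in QxG, against 7, 9 and 1 reads in GxQ. That is 0.776, 2.90 and 0.712 CPM in QxG, against 0.358, 0.492 and 0.0566 CPM in GxQ, so the groups did not overlap although all values were low. The log2 fold change was 2.23 with a 95% interval of 0.53 to 3.94 (edgeR adjusted p = 0.0976), and DESeq2 called it (adjusted p = 0.0269). CEL2 stood at 798, 656 and 1263 CPM in QxG, against 128, 169 and 494 CPM in GxQ. Here too the lowest QxG fruit lay above the highest GxQ fruit, which was the third. The log2 fold change was 1.78 with a 95% interval of 0.21 to 3.35 (edgeR adjusted p = 0.149).

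In total 2 of the 4 genes were called higher in QxG, against 2.66% of all genes tested. For 4 of 4 the libraries of the hybrids did not overlap with QxG above, a pattern that 10.4% of all genes showed. The median log2 fold change of the 4 was 2.01, against -0.02 over all genes. The calls were near the threshold: that of EXP1 ended without the first G library or without any 1 of the 6 hybrid libraries (adjusted p = 0.0507 to 0.104), and that of MAN4 ended when the second QxG, the third QxG, the first GxQ or the third GxQ library was left out (0.0621 to 0.109). CEL2 was called without the third Q library (log2 fold change 1.82, adjusted p = 0.0437).

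Against the parent Q, the GxQ fruits were lower in EXP1, MAN4 and CEL2. In Q, EXP1 stood at 565, 512 and 2060 CPM, so that each GxQ fruit lay below each Q fruit. Relative to Q, EXP1 was 4.90-fold lower in GxQ (log2 fold change -2.29, SE 0.483, adjusted p = 0.0107). MAN4 stood at 17.9, 19.3 and 155 CPM in Q, with a wide gap to the GxQ fruit that held the most. It was 55.0-fold lower in GxQ (log2 fold change -5.78, SE 1.08, adjusted p = 0.00627). CEL2 stood at 780, 672 and 4021 CPM in Q, all above the third GxQ fruit, and was 6.92-fold lower in GxQ (log2 fold change -2.79, SE 0.748, adjusted p = 0.0286). All 3 genes thus separated GxQ from Q without overlap, as 19.9% of all genes did with GxQ lower. CEL1 stood at 0.672, 0.163 and 0.769 CPM in Q, from 17, 4 and 14 reads, and its GxQ range overlapped that of Q (log2 fold change -0.79, 95% interval -2.53 to 0.96, adjusted p = 0.538). Thus 3 of 4 genes were called lower in GxQ than in Q, against 7.41% of all genes.

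The sizes depended on the third Q fruit and the calls of EXP1 and MAN4 did not. Without it the log2 fold change of EXP1 was -1.35 (adjusted p = 0.0125) and that of MAN4 was -4.02 (adjusted p = 0.00987). These 2 calls held without any single library of the 12 (adjusted p = 0.0103 to 0.0426 for EXP1 and 0.00409 to 0.0294 for MAN4). The CEL2 call ended without the third Q library (log2 fold change -1.48, adjusted p = 0.106) and without the first or second GxQ library (adjusted p = 0.0744 and 0.0979). It also ended with only GxQ and Q in the fit (adjusted p = 0.0806).

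Against G, the genes lower in GxQ were MAN4 and CEL1. MAN4 stood at 20.4, 23.7 and 14.4 CPM in G and was 16.8-fold lower in GxQ (log2 fold change -4.07, SE 1.03, edgeR adjusted p = 0.0251). CEL1 stood at 5.15, 7.88 and 4.81 CPM in G, from 105, 117 and 123 reads. All of these were far above the GxQ fruits, and CEL1 was 19.1-fold lower in GxQ (log2 fold change -4.26, SE 0.807, adjusted p = 0.00856). EXP1 stood at 490, 827 and 413 CPM in G, also with no overlap, and had a log2 fold change of -1.43 with a 95% interval of -2.46 to -0.41 (adjusted p = 0.0675). CEL2 stood at 549, 921 and 292 CPM in G, and the third GxQ fruit lay inside that range (log2 fold change -1.16, 95% interval -2.70 to 0.39, adjusted p = 0.320).

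This made 2 of 4 genes called lower in GxQ than in G, against 5.34% of all genes. For 3 of 4 the fruits did not overlap, a pattern of 19.3% of all genes. CEL1 passed without any single library (adjusted p = 0.00625 to 0.0350). The MAN4 call ended without the first or the second G library and without the first or the third GxQ library (adjusted p = 0.0649 to 0.0868). EXP1 was called without the third Q library (adjusted p = 0.00506), with only the compared genotypes in the fit (0.0150), with total counts as the only scaling (0.0439) and by DESeq2 (0.0143). Set beside both parents at once, all 3 GxQ fruits lay below all 6 parental fruits for EXP1 and MAN4, which 8.45% of all genes showed. For CEL2 2 of the 3 GxQ fruits did, and for CEL1 1 of 3. The comparisons of GxQ with QxG, Q and G share the GxQ libraries and are not independent of each other.

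**Figure D2:**
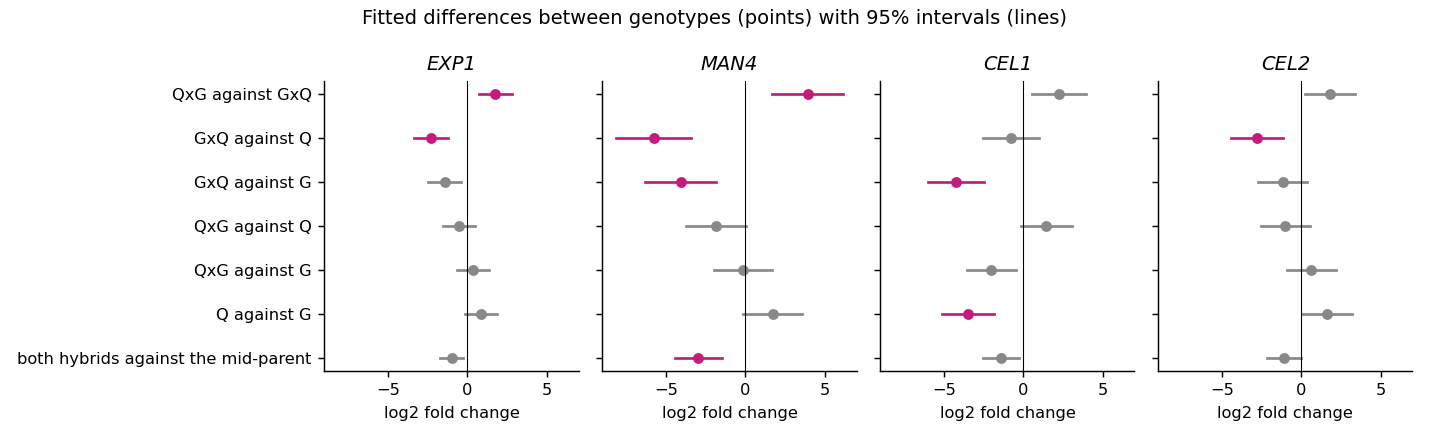
Fitted log2 fold change (horizontal axis, points) with its 95% interval (lines) for each gene in 7 comparisons (vertical axis); the group named first is over the group named second. Magenta marks an edgeR adjusted p under 0.05 and grey the others. The comparisons that hold GxQ carry most of the magenta points, and the MAN4 value against Q, -5.78, is the farthest from 0.

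QxG fruits did not pass the test against either parent for any of the 4 genes. EXP1 in QxG stood at 69.1% of the Q mean and 125% of the G mean, with log2 fold changes of -0.53 against Q (95% interval -1.54 to 0.47) and 0.32 against G (-0.68 to 1.33). CEL2 had log2 fold changes of -1.01 (-2.55 to 0.53) and 0.63 (-0.91 to 2.16), and MAN4 of -1.85 (-3.72 to 0.03) and -0.13 (-1.97 to 1.71). Each of these 6 intervals includes 0 and reaches past a 2-fold difference in at least 1 direction. The CEL1 mean in QxG lay between those of the parents, at 274% of the low Q mean and 24.6% of the G mean. QxG fruits at 0.776 and 0.712 CPM lay near the highest Q fruit, at 0.769 CPM. The 274% thus rests on the QxG fruit at 2.90 CPM. Against Q, CEL1 did not pass the test and the fruits overlapped (log2 fold change 1.45, 95% interval -0.16 to 3.05, edgeR adjusted p = 0.226). Its QxG fruits did not overlap those of G, as in 19.6% of all genes with QxG lower (log2 fold change -2.03, 95% interval -3.56 to -0.49, adjusted p = 0.0960). The second QxG fruit, at 2.90 CPM, was nearest to G.

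By edgeR 0 of 4 genes were called between QxG and Q and 0 of 4 between QxG and G, against 9.55% and 8.5% of all genes. At an unadjusted p under 0.05 the counts were 0 and 1, and by DESeq2 0 and 1, the 1 being CEL1 (DESeq2 adjusted p = 0.0344). CEL1 was also called lower in QxG than in G without the second QxG library (log2 fold change -2.95, adjusted p = 0.0390) and with the replicate number as a block in the hybrids (log2 fold change -2.31, adjusted p = 0.0288). Relative to Q, the signs of EXP1 and CEL2 turned without the third Q library, to log2 fold changes of 0.45 and 0.34, and the MAN4 value was -0.04 (range over single libraries -2.51 to -0.04). The EXP1 level in QxG was then 134% of the Q mean.

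The parental lines differed in CEL1 and, by this test, in none of the others. Relative to G, CEL1 was 11.1-fold lower in Q (log2 fold change -3.47, SE 0.759, edgeR adjusted p = 0.0198). Every Q fruit lay below every G fruit, which 18.8% of all genes showed. This is 1 of 4 genes called lower in Q, against 2.81% of all genes. The CEL1 call ended without the first or second Q library or any 1 of the 3 G libraries (adjusted p = 0.0522 to 0.0775), while the log2 fold change stayed between -3.79 and -3.03. EXP1, MAN4 and CEL2 had higher means in Q (log2 fold changes 0.86, 1.71 and 1.64, adjusted p = 0.268, 0.232 and 0.177). Without the third Q fruit the values were -0.086, -0.054 and 0.32 (adjusted p = 0.879, 0.972 and 0.765).

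The average of both hybrids was set against the mid-parent, which averages the fitted log values for both lines. MAN4 was lower in the average of the hybrids (log2 fold change -2.96, SE 0.670, edgeR adjusted p = 0.0175). This contrast does not separate the hybrids: MAN4 was called lower than each parent in GxQ and than neither parent in QxG. For the other genes the values were -0.98 for EXP1, -1.41 for CEL1 and -1.08 for CEL2 (adjusted p = 0.0739, 0.110 and 0.183). Without the third Q library the values were -2.06 for MAN4, -0.50 for EXP1, -1.23 for CEL1 and -0.41 for CEL2 (adjusted p = 0.0204, 0.101, 0.174 and 0.509). With the replicate number as a block in the hybrids, CEL1 was called too (log2 fold change -1.68, adjusted p = 0.0292), as it was without the second QxG library (-1.88, adjusted p = 0.0408) and by DESeq2 (adjusted p = 0.0485). EXP1 was called by DESeq2 (adjusted p = 0.0200) and with total counts only (0.0292). This made 1 of 4 called lower, against 6.13% of all genes. As a share of the arithmetic mean of the parents, EXP1 stood at 89.0% in QxG and 26.3% in GxQ, CEL2 at 75.1% and 21.9%, MAN4 at 42.7% and 2.77%, and CEL1 at 45.2% and 9.33%. With the third Q fruit left out, a choice made after seeing the data, EXP1 stood at 129.5% in QxG and 38.3% in GxQ, CEL2 at 138% and 40.1%, MAN4 at 93.6% and 6.06%, and CEL1 at 46.0% and 9.50%. The QxG shares of EXP1 and CEL2 thus changed from below to above the mid-parent, and that of MAN4 moved from 42.7% to 93.6%. All 4 GxQ shares stayed below the mid-parent. CER6 was lower in the average of the hybrids too, and its part in the MAN4 result was not tested.

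The fruits of Q varied among themselves in these genes. The third Q fruit held 3.83 times the mean of the first and second for EXP1, 5.54 times for CEL2 and 8.32 times for MAN4. CEL1, at 14 reads in the third fruit, held 1.84 times their mean. Other ripening transcripts were high in the same fruit. The polygalacturonase PG2A, which cuts pectin, stood at 7549 CPM there and at 1565 and 1918 CPM in the other Q fruits. The ethylene synthesis genes ACS2 and ACO1 and the ethylene-responsive gene E4 held 3.27, 3.54 and 3.86 times the mean of the others, the ripening factor NOR 2.07 times and the ripening factor RIN 1.33 times. Other listed genes were low there: the epidermal gene CER6 held 0.336 times the mean of the others, EXP5 0.379 times, Solyc05g005560 0.031 times and the endoglucanase gene CEL7 0.024 times. The parts of ripeness and of tissue makeup in the values of this fruit were not tested.

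For the hybrids the 6 listed ripening genes (ACS2, ACO1, E4, PSY1, NOR and RIN) were set beside the results. Between QxG and GxQ 0 of 6 were called by edgeR, 0 had an unadjusted p under 0.05 and DESeq2 called 0, with a median log2 fold change of 0.36. Between GxQ and Q, ACS2 was lower in GxQ (log2 fold change -1.99, adjusted p = 0.0375), as 1 of 6, and between GxQ and G edgeR and DESeq2 called 0 of 6, with 1 at an unadjusted p under 0.05. Without the third Q library the ACS2 call ended, with 0 of 6 called between GxQ and Q. These counts stand beside 2.66% of all genes called higher and 7.49% lower in QxG than in GxQ, 7.41% lower in GxQ than in Q and 5.34% lower in GxQ than in G, so 0 or 1 of 6 is near the background. In single GxQ fruits ACS2 stood at 140, 238 and 471 CPM and ACO1 at 841, 627 and 2383 CPM, and CEL2 was highest in the third of these fruits. EXP1 was also highest there, but MAN4 and CEL1 were lowest. The part of ripeness in the GxQ levels was not tested either.

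EXP1 and CEL2 varied together from fruit to fruit. Over the 12 libraries Pearson's r of log2(CPM + 0.5) was 0.937 and Spearman's rho was 0.965. After subtraction of the genotype means r was 0.886, without the third Q library it was 0.891, and without the 2 libraries farthest from the EXP1 median it was 0.850. Among 12477 other genes with a mean of at least 5 CPM, CEL2 was the second most similar to EXP1. The most similar was Solyc12g010860 (r = 0.971), which was also the second most similar to CEL2 (r = 0.938), after Solyc11g012325 (r = 0.955). MAN4 had r = 0.856 with EXP1 and 0.757 with CEL2, and 0.599 and 0.468 after subtraction of the genotype means. Without the 2 libraries farthest from the median of EXP1, r with EXP1 was 0.779, and likewise without the 2 farthest for MAN4, r with CEL2 was 0.780. Its most similar genes were Solyc05g013440 and Solyc04g015750 (r = 0.955 and 0.946).

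CEL1 was less closely tied to EXP1 and CEL2. Its r was 0.280 with EXP1, 0.075 with CEL2 and 0.453 with MAN4 over the 12 libraries. In the same order Spearman's rho was 0.434, 0.301 and 0.587. Within genotypes r was 0.218, 0.014 and 0.624, and without the third Q library it was 0.456, 0.191 and 0.623. Leaving out the 2 libraries farthest from the median of EXP1, of CEL1 and of MAN4 in turn gave r of 0.427, 0.0021 and 0.178. Its most similar genes were Solyc12g088210 and Solyc03g118300 (r = 0.956 and 0.934). The identifiers of these similar genes carry no names in the sources used here. All these correlations describe 12 libraries that share their scaling and fall into 4 genotypes, and they carry no test.

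**Figure D3:**
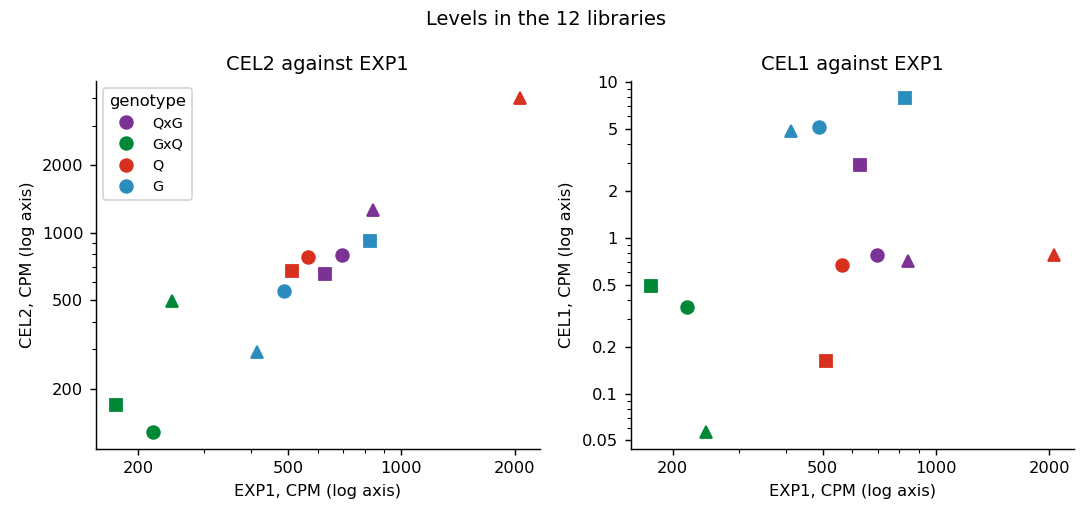
CPM of CEL2 (left, vertical axis) and of CEL1 (right, vertical axis) against CPM of EXP1 (horizontal axes), all on log axes; each point is 1 library, coloured by genotype, with circles, squares and triangles for the first, the second and the third library. CEL2 rises with EXP1 (r = 0.937 on the log2 scale), with the third Q library at the top right, while the G libraries are the highest points of CEL1 (r = 0.280).

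Of 18 other cell wall genes listed for comparison 15 were measured, and 1 of them was called higher in QxG than in GxQ, as EXP1 and MAN4 were. Between QxG and GxQ 1 of 15 was higher and 0 lower, where 2.66% and 7.49% of all genes were, and their median log2 fold change was 0.08. The 1 was the pectate lyase PL, which cleaves pectin, at 2382, 1859 and 1933 CPM in QxG, against 696, 576 and 686 CPM in GxQ. The groups were far apart (log2 fold change 1.66, edgeR adjusted p = 0.00364). PL was also lower in GxQ than in Q and in G (log2 fold changes -2.41 and -2.22, adjusted p = 0.00120 and 0.00252). The average of both hybrids was lower than the mid-parent (-1.49, adjusted p = 0.00219), although by edgeR with TMM PL in QxG passed against neither parent. These PL calls held without any single library. DESeq2 called PL lower in QxG than in Q (-0.74, adjusted p = 0.0463). So did edgeR with total counts only (-0.98, adjusted p = 0.0229), a scaling that moved the median of all genes there to -0.37. PG2A had a mean of 1973 ± 569 CPM in QxG, against 1177 ± 243 CPM in GxQ, which did not pass the test (log2 fold change 0.75, adjusted p = 0.394). Against Q, PG2A was lower in GxQ (-1.64, adjusted p = 0.0482), a call that ended in 9 of the 12 fits with 1 library left out. Without the third Q library it was -0.58 (adjusted p = 0.183). Its value in GxQ against G was -1.38 (adjusted p = 0.0975). That difference passed without the third Q library (0.00560), by DESeq2 (0.0269) and with only the compared genotypes in the fit (0.00950). Against the mid-parent PG2A was at -1.14 (adjusted p = 0.0589). There it passed by DESeq2 (0.00816), with total counts only (0.0241) and without the first Q library (0.0354). In QxG, PG2A and PL had log2 fold changes of -0.90 and -0.76 against Q (adjusted p = 0.266 and 0.114) and of -0.63 and -0.56 against G (0.452 and 0.235).

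Among relatives of EXP1, CEL1 and CEL2, the called genes CEL3 and EXP5 were not lowest in GxQ. CEL8 and CEL7, named here after their values were seen, were. The endoglucanase gene CEL8 had means of 4.49 ± 5.84 CPM in QxG, 0.613 ± 0.135 in GxQ, 4.39 ± 2.20 in Q and 1.62 ± 0.624 in G. Its GxQ fruits lay below all Q and all G fruits but overlapped those of QxG. It did not pass the test between QxG and GxQ (log2 fold change 2.86, adjusted p = 0.0869), GxQ and Q (-2.82, adjusted p = 0.0681) or GxQ and G (-1.38, adjusted p = 0.382). CEL7 also had its lowest mean in GxQ, at 0.0511 CPM. That order rests on few reads: 3, 0 and 0 in GxQ, 13, 0 and 1 in QxG and 3, 3 and 8 in G. The expansins EXP2 and EXP18, also low and also named after their values were seen, were not lowest in GxQ. Their GxQ means were 0.577 and 0.647 CPM, with EXP2 highest in GxQ and EXP18 higher only in Q. The endoglucanase gene CEL3 rose in both hybrids, to 149 ± 6.87 CPM in QxG and 152 ± 29.0 CPM in GxQ, against 88.2 ± 16.5 CPM in Q and 73.7 ± 19.8 CPM in G. The log2 fold changes against Q were 0.75 in QxG and 0.79 in GxQ (adjusted p = 0.0430 and 0.0275), and against G 1.01 and 1.05 (adjusted p = 0.0156 and 0.0101). Against the mid-parent it was 0.90 (adjusted p = 0.00447). The CEL3 calls in GxQ against G and against the mid-parent held without any single library, and the others did not. With the third Q library left out, for example, the adjusted p against Q was 0.0727 in QxG and 0.0809 in GxQ. With total counts as the only scaling the calls against Q ended as well (adjusted p = 0.246 in QxG and 0.162 in GxQ), as did that of QxG against G (0.0574). The expansin EXP5 was higher in GxQ, at 5.93 ± 1.80 CPM, than in G, at 0.765 ± 0.515 CPM (log2 fold change 2.90, adjusted p = 0.00966). It was also higher in Q than in G (4.49 ± 2.21 CPM in Q, log2 fold change 2.50, adjusted p = 0.0231), a call that ended without the first or second library of either line.

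The other calls on the list fell on pectin genes. The pectinesterase gene Solyc07g064180 was lower in GxQ than in Q (log2 fold change -2.93, adjusted p = 0.0280) and higher than in G in QxG, GxQ and Q (4.57, 3.03 and 5.96, adjusted p = 0.0110, 0.0300 and 0.00378). The pectinesterase gene Solyc07g064170, next to it by identifier, was lower in QxG than in G and in Q than in G (-1.11 and -0.999, adjusted p = 0.0266 and 0.0421). Solyc05g005560 was listed as the polygalacturonase β-subunit gene, a name that could not be checked by position. It was lower in QxG and in GxQ than in Q (-4.05 and -5.34, adjusted p = 0.0416 and 0.0141) and higher in Q than in G (6.52, adjusted p = 0.0145). Of these pectin gene calls, the 1 that held without any single library was Solyc07g064180 in Q against G.

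Counted over the list, 1 of 15 was higher and 4 were lower in GxQ than in Q, beside 8.13% and 7.41% of all genes. In GxQ against G 3 were higher and 1 was lower, beside 6.99% and 5.34%. In QxG against Q 1 was higher and 1 lower, beside 3.64% and 5.91%, and in QxG against G 2 were higher and 1 lower, beside 3.14% and 5.37%. In Q against G 3 were higher and 1 lower, beside 4.51% and 2.81%. In both hybrids against the mid-parent 1 was higher and 1 lower, beside 5.3% and 6.13%. The balance depended on the fit in GxQ against G, where DESeq2 called 4 higher and 4 lower and edgeR without the third Q library 3 and 3. In GxQ against Q, DESeq2 called 1 higher and 6 lower, and edgeR without the third Q library 0 and 4.

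**Figure D4:**
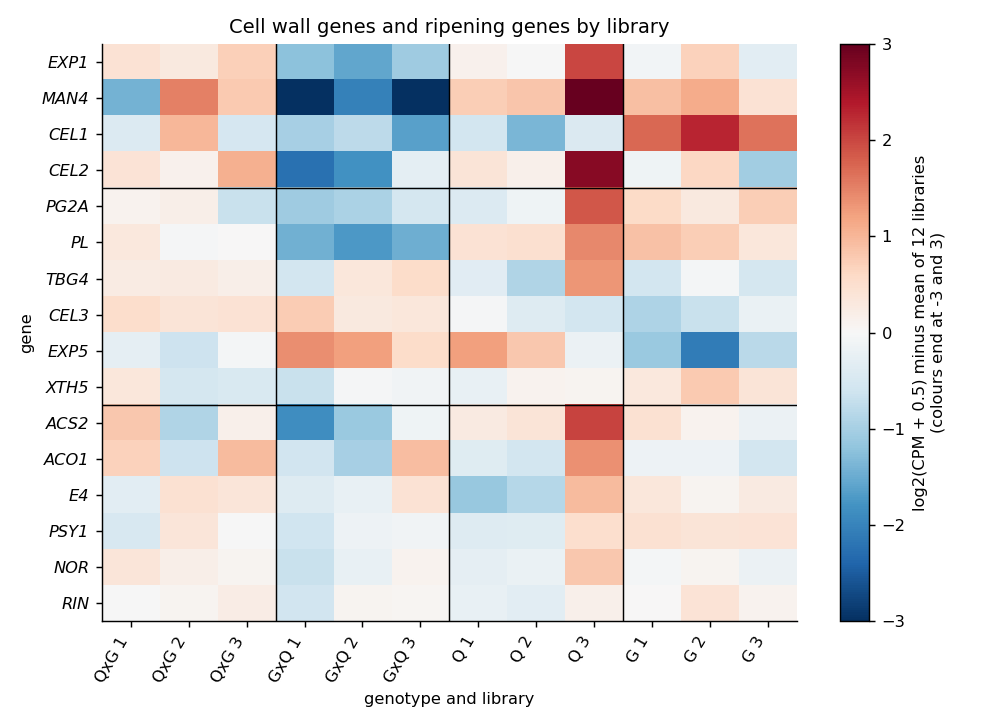
Heat map of log2(CPM + 0.5) minus the mean of the 12 libraries for the 4 genes (top block), 6 other cell wall genes (middle) and 6 ripening genes (bottom), with the 12 libraries as columns in the order QxG, GxQ, Q, G; red is above and blue below the mean, and colours end at -3 and 3. EXP1, MAN4, CEL1, CEL2, PL, PG2A, XTH5, ACS2 and PSY1 are below the mean in all 3 GxQ columns, some of them only slightly. CEL3 is red in these columns, and the third Q column is red for EXP1, MAN4, CEL2, PG2A and the ripening genes.

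The 4 genes lie on 4 chromosomes by their identifiers: MAN4 on chromosome 1, EXP1 on 6, CEL1 on 8 and CEL2 on 9. Of the 10 nearest measured genes around EXP1, 5 on each side by identifier, 0 were lower and 1 was higher in GxQ than in Q. Around MAN4 these counts were 0 and 1, around CEL2 1 and 1, and around CEL1, for Q against G, 2 lower and 1 higher. In GxQ against G, 2 of the 10 neighbours of MAN4 were lower and 1 was higher, and 0 of those of CEL1 were called. Of all genes, 7.41% were lower and 8.13% higher in GxQ than in Q, 5.34% and 6.99% in GxQ than in G, and 2.81% and 4.51% in Q than in G. The median log2 fold changes between GxQ and Q of the neighbours of EXP1, MAN4 and CEL2 lay between -0.27 and 0.27, against -2.29, -5.78 and -2.79 for the genes themselves.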

How the data were processed

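Read counts per gene for 12 libraries came as 1 table that the authors deposited. They were taken as raw counts, since all are whole numbers and the totals differ between libraries. FastQC, fastp 0.21, HISAT2 2.1.0, featureCounts of Subread, edgeR and R 4.0.3 are named in the submitters' processing notes, without roles. Which genome and annotation were used, and how strand and multiply mapped reads were handled, the sources used here do not give. Related or overlapping genes may therefore share reads, and wild alleles may map less well. Every gene has over 0.5 CPM in at least 3 libraries.

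All genes were fitted with edgeR 4.0.16 in R 4.3.3 (quasi-likelihood F test, TMM, 1 mean per genotype, shared spread, two-sided), and p-values were adjusted by Benjamini-Hochberg over 17887 genes at 0.05. The filterByExpr filter removed 0 genes. Each SE was obtained from the log2 fold change and the F statistic, as the ratio of the absolute value to the root of F. The 95% intervals, not adjusted for multiple tests, use the test's degrees of freedom. DESeq2 1.42.0, other scalings and filters, and leaving out libraries were alternatives. CPM values of different genes were not compared, because no transcript lengths were used.

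Same-numbered QxG and GxQ libraries deviated together (r = 0.164, 0.333 and 0.209), so a block for the number in the hybrids was also fitted; no other pair of genotypes had all 3 above 0.1. No 2 libraries were identical.

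The members and lists were chosen with earlier results of these data known. Named were the 4 genes, PG2A and PL, other listed cell wall genes called in a comparison (up to 4 by adjusted p), and the 2 genes most similar to each of the 4. CER6 and the listed ripening genes served as checks of tissue and stage. None of the table's identifiers matched the RefSeq gene table (assembly SLM_r2.1). Names were therefore checked by position: 28 of 30 listed symbols named exactly 1 RefSeq gene, all 28 lay on the chromosome in their identifier, and 31 of 31 pairs on a shared chromosome had the same order. The others were CEL4, which was not measured, and Solyc05g005560, whose name as a polygalacturonase β-subunit gene rests on the list alone. CD1, an epidermal gene also listed, was not among the genes measured, so CER6 was the only listed epidermal marker with values.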

Additional observations from a re-analysis of the deposited data

How the results depend on the processing

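Over 20 alternatives, 503 of 555 log2 fold changes of the 4 genes kept their direction and their side of the threshold, 25 lost the call, 15 gained it and 12 changed sign; the causes were not tested. The fit with no filter is not counted, since the filter removed 0 genes. Most of the 555 values belong to results that were not called to begin with, so the 503 does not measure how stable the calls were. The EXP1 call between QxG and GxQ, for example, ended in 7 of the 12 fits with 1 library left out. EXP1 and MAN4 between GxQ and Q and CEL1 between GxQ and G, and MAN4 against the mid-parent, kept their calls under every alternative in which they were tested. Leaving out 1 library in turn gave these ranges. For Q against G: EXP1 -0.086 to 1.21, MAN4 -0.054 to 2.17, CEL1 -3.79 to -3.03, with 335 to 2207 genes called in all. For QxG against GxQ: EXP1 1.64 to 1.91, MAN4 3.30 to 4.84, CEL2 1.45 to 2.65 and 1127 to 2205 genes. For QxG against Q: EXP1 -0.83 to 0.45, CEL2 -1.37 to 0.34 and 310 to 2606 genes. For QxG against G: MAN4 -0.77 to 0.40, CEL1 -2.95 to -1.66 and 342 to 1993 genes. For GxQ against Q: CEL2 -3.64 to -1.48 and 1258 to 3828 genes. For GxQ against G: EXP1 -1.63 to -1.08, MAN4 -4.97 to -3.70 and 777 to 3072 genes. For both hybrids against the mid-parent: EXP1 -1.13 to -0.50, MAN4 -3.41 to -2.06, CEL1 -1.88 to -1.16, CEL2 -1.49 to -0.41 and 1002 to 2663 genes. The MAN4 sign between QxG and G turned without the second G or the first QxG library (0.03 and 0.40).

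Without the third Q and first QxG libraries together, values changed sign for EXP1 and MAN4 between Q and G (-0.099 and -0.065), for EXP1, MAN4 and CEL2 between QxG and Q (0.50, 0.47 and 0.45) and for MAN4 between QxG and G (0.41). CEL2 between GxQ and Q lost its call (-1.47) and EXP1 between GxQ and G gained one (-1.44). The genes called were then 2939 for Q against G, 3739 for QxG against Q, 2682 for QxG against G, 3919 for GxQ against G and 3649 for both hybrids against the mid-parent. PG2A and PL changed sign between Q and G without both (-0.81 and -0.22) and without the third Q library alone, with ranges of -0.80 to 0.65 and -0.21 to 0.38 over the single libraries. PG2A did so between QxG and Q (0.13 without both, range -1.23 to 0.20).

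By DESeq2, calls were gained for CEL1 between QxG and GxQ (2.29), between QxG and G (-1.99) and against the mid-parent (-1.40), and for EXP1 between GxQ and G (-1.42) and against the mid-parent (-0.97). DESeq2 called 2643 genes for Q against G, 3085 for QxG against Q, 2769 for QxG against G, 3379 for GxQ against G and 3224 against the mid-parent. With total counts only, EXP1 was called between GxQ and G (-1.44) and against the mid-parent (-1.08), and 2663 genes between QxG and Q; this scaling moved the median of all genes between GxQ and Q to -0.23. With only the compared genotypes in the fit, EXP1 was called between GxQ and G (-1.44) and CEL2 was not between GxQ and Q (-2.80), and 2553, 1143 and 297 genes were called for Q against G, QxG against GxQ and QxG against Q. With the replicate block in the hybrids CEL1 was called between QxG and G (-2.31) and against the mid-parent (-1.68), 2148 genes were called for Q against G, and no other call of the 4 genes changed; the replicate block over all libraries changed none. Depth limits the low values of CEL1 and of MAN4 in GxQ, which rest on as few as 1 and 8 reads.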
